A study of Mus musculus with 4 samples.

Results

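Genes of the decision to enter or leave the cell cycle were followed across mouse hindlimb development, 9 in all: the CDK inhibitors Cdkn1a (p21), Cdkn1b (p27) and Cdkn2c (p18), the D cyclins Ccnd1, Ccnd2 and Ccnd3, the pocket-protein genes Rb1 and Rbl2, and Ccng1 (cyclin G1). The 9 were chosen by name and are 9 of the 33456 gene entries counted. They were read by stage, by cell class, and in cells with at least 1 unique molecular identifier (UMI, a count of an original RNA molecule) of Top2a, called dividing cells below, and cells with 0 of it, called other cells. Top2a encodes a topoisomerase that is made from S phase to mitosis, so cells in G1 that go on to divide fall among the other cells.

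The data are droplet single-cell RNA sequencing of hindlimbs of C57BL/6 embryos, which carried no allele or treatment that the labels give. There is 1 library for each of embryonic days E11.5, E13.5 and E15.5, and 1 for E18.5, made from limbs of 6 to 7 pups of 1 litter pooled per stage, digested with collagenase and pronase at 37 °C. Cells were stored frozen, and dead ones were removed after thawing. The labels tie the stages to limb bud formation, cartilage condensation, joint cavitation and joint morphogenesis. Stage, litter and library therefore cannot be told apart, and no test between stages was possible. Levels are set side by side between cell classes as a description, with no test.

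D cyclins are made in response to growth signals and activate CDK4 and CDK6, which phosphorylate RB family proteins and so release E2F factors that switch on S phase genes. p18 belongs to the INK4 family, which binds CDK4 and CDK6 directly, while p21 and p27 belong to the CIP/KIP family, which also blocks the CDKs paired with cyclins E and A. In the growing limb, proliferating chondrocytes leave the cycle as they become hypertrophic, and muscle progenitors leave it for good as they fuse into fibres. Cdkn1a and Ccng1 are known targets of p53, and RB is needed to keep differentiating muscle out of the cycle.

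In all, 9929 cells were kept of 10272 barcodes, 1896 to 2812 per library, with 14664041 to 35068024 UMIs per library and a median of 6944.5 to 10263.5 UMIs per cell. E18.5 was the shallowest library and had the highest median mitochondrial share (3.54%, against 2.60% to 2.91% in the others). Between 31.9% and 64.9% of cells per library were dividing, and dividing cells held 1.39 to 1.65 times the UMIs of other cells on average; thinned to 3000 UMIs per cell the shares were 46.4%, 26.6%, 27.9% and 21.0% from E11.5 to E18.5. Across the libraries 65 barcode strings occurred more than once. Levels are given in CPM, the gene's UMIs scaled to the standard common total of UMIs, globin genes left out, and brackets hold exact 95% intervals that cover counting error only.

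The 9 genes fell into abundant D cyclins and scarce partners. Over the kept cells, 33265 UMIs were of Ccnd3, 27063 of Ccnd2, 14182 of Ccnd1 and 7394 of Cdkn1a. Ccng1 had 3146 UMIs, Cdkn2c 2520, Cdkn1b 2274, Rb1 710 and Rbl2 454. The genes lie on the mouse assembly GRCm38 at chr17:29090976-29100727 (Cdkn1a, plus strand), chr6:134920401-134925513 (Cdkn1b, plus), chr4:109660876-109667189 (Cdkn2c, minus), chr7:144929931-144939925 (Ccnd1, minus), chr6:127125162-127152193 (Ccnd2, minus), chr17:47505051-47599691 (Ccnd3, plus), chr14:73183673-73325822 (Rb1, minus), chr8:91070057-91123844 (Rbl2, plus) and chr11:40748552-40755311 (Ccng1, minus). All 9 are annotated as protein-coding. Other counted genes overlap Ccnd1 (LTO1), Ccnd2 (9330179D12Rik, antisense), Ccnd3 (Bysl), Rb1 (Lpar6, Rcbtb2 and others) and Rbl2 (Aktip), and the sources used here do not say whether counting used strand.

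Promoter windows from RefSeq (GRCm38.p6, from 250 bases before to 50 after an annotated start) were at hand for 6 of the 9 genes, in 9 windows. A p53 response element, searched by its known consensus as 2 half-sites with no spacer over 20 bases and at most 1 mismatch on both strands, was in the windows of Cdkn1a and Ccng1, 2 of 9 windows, in 29 of all 32851 windows (0.0883%), and in 0 of the 21 windows of the other listed p53 targets (16 genes). Their upstream 250 bases are shown because these are the members known as p53 targets; capitals mark the matched element, which has 1 mismatch in each.
Cdkn1a, chr17:29090729-29090978, plus strand: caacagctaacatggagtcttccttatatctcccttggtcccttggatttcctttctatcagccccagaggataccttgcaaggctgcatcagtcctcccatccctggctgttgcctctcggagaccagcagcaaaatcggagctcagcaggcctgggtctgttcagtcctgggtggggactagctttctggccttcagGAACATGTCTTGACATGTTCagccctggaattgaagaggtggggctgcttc
Ccng1, chr11:40755287-40755536, minus strand: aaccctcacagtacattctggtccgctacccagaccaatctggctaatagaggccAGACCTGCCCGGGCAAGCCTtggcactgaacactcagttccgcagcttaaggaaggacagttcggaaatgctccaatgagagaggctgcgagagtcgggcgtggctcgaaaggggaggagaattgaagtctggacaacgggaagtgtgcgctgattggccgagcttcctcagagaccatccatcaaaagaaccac
The element begins 51 bases before the annotated start in Cdkn1a and 195 bases before it in Ccng1. The second Cdkn1a window, at a start inside the gene, held no match. The E2F letters TTTCGCGC, TTTGGCGC, TTTCCCGC and TTTGGCGG, searched on both strands, were in 0 of the 9 member windows, in 2.37% of all windows and in 36.8% of the windows of 18 listed S phase genes (16 of them in the table). The CHR letters TTTGAA were in 1 of 9 member windows, that of Rbl2, in 17.9% of all windows and in 80.0% of the windows of listed G2/M genes. The E2F and CHR letters were searched with no mismatch allowed, unlike the p53 element, so sites 1 letter off were not counted. A match is a run of letters and does not show a bound site, and no match does not show that a site is lacking.

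Cdkn2c has a pair of annotated starts, shown because this gene carried the largest difference between dividing and other cells. Capitals mark CG dinucleotides.
Cdkn2c downstream start, chr4:109665373-109665622, minus strand: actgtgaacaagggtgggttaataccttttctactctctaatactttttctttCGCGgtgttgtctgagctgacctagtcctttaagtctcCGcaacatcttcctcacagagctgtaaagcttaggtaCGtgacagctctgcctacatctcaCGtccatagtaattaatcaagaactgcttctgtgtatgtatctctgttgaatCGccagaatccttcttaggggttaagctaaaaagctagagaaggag
Cdkn2c upstream start, chr4:109666757-109667006, minus strand: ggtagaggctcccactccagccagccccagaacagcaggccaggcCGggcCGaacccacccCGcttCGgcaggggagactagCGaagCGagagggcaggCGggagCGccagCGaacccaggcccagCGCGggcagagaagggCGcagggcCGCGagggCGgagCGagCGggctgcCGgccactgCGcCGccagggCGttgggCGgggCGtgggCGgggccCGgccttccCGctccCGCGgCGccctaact
The downstream window holds 6 CG dinucleotides in 250 bases and is 42.8% G and C. The upstream one holds 29 and is 77.2% G and C, and the median over all windows is 6. The counted UMIs come from the 3′ ends of transcripts, so they do not say which start was used.

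By stage, the 3 inhibitors were higher at E18.5 than at E11.5, and Ccnd1 was lower. Cdkn2c was at 4.03, 21.5, 31.9 and 48.8 CPM from E11.5 to E18.5. Cdkn1a was at 46.7, 43.7, 83.7 and 145 CPM. Cdkn1b was at 23.5, 16.4, 18.7 and 35.0 CPM. Cdkn2c was thus lowest in the first library, while Cdkn1b was lowest at E13.5 and E15.5.

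Among the D cyclins, Ccnd1 was at 219, 132, 96.2 and 57.1 CPM and Ccnd2 at 317, 275, 229 and 147 CPM. In CPM each was lower at every later stage, but the first step of Ccnd2 changed direction on other scales (below). Ccnd3 was at 337, 295, 321 and 298 CPM and was the most level of the 9 genes. Rb1, the founding pocket-protein gene, was at 5.63, 4.56, 6.89 and 13.3 CPM. Rbl2 (p130, the pocket protein of resting cells) was at 2.94, 3.82, 5.27 and 5.80 CPM. Ccng1 was at 28.7, 32.7, 31.6 and 20 CPM.

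**Figure D1:**
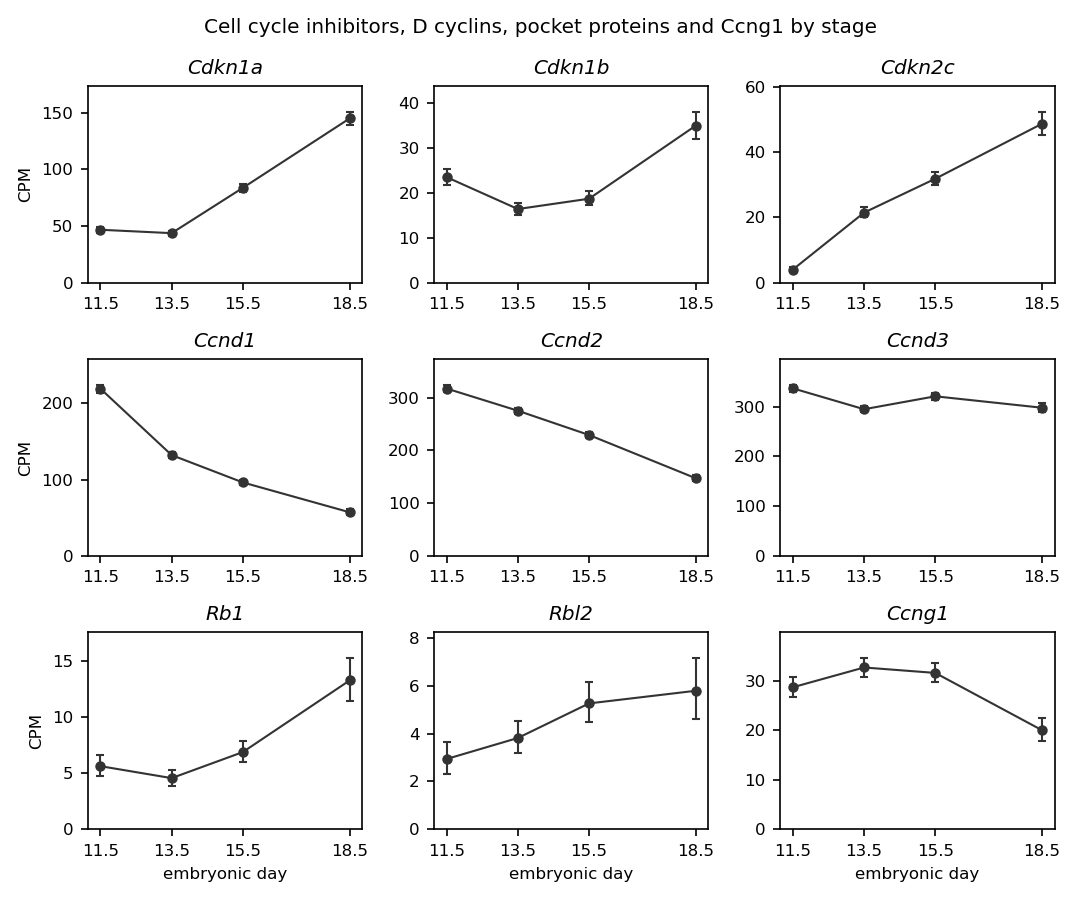
Level of each of the 9 genes in each library (CPM, axis from 0 with a scale of its own for each gene) against embryonic day, with exact 95% Poisson intervals for counting error. Cdkn2c is at 4.03 CPM at E11.5 and 48.8 CPM at E18.5, Ccnd1 at 219 and 57.1 CPM, and Ccnd3 stays between 295 and 337 CPM.

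Ratios between libraries were divided by that of the median gene, because the median gene's log2 ratio was -0.63 for E18.5 over E11.5. A gene was called at a 2-fold ratio whose whole interval lay on one side of 1. On this scale Cdkn2c was 18.7-fold higher at E18.5 than at E11.5 (15.3 to 23.2), Cdkn1a 4.81-fold (4.48 to 5.16), Rb1 3.66-fold (2.94 to 4.55), Rbl2 3.05-fold (2.22 to 4.19) and Cdkn1b 2.30-fold (2.04 to 2.59). Ccnd1 was 2.47-fold lower (2.30 to 2.66). So 5 of 9 members were called higher and 1 lower, where 24.5% of the 14872 genes measured were called higher and 13.9% lower. Ccnd2 was at a ratio of 0.720, Ccnd3 at 1.37 and Ccng1 at 1.08, none of them called. Without division by the median gene Ccnd2 was past 2-fold lower (log2 -1.1, and -1.5 as UMIs per cell). Without division by the median gene the log2 ratio of Cdkn1b was 0.57 and that of Rbl2 0.98, both short of 2-fold, and those of Ccnd3 (-0.18) and Ccng1 (-0.52) changed direction. As UMIs per cell Cdkn1b (log2 0.17), Rb1 (0.84) and Rbl2 (0.58) were all short of 2-fold.

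The steps between neighbouring stages differed by gene. For E13.5 over E11.5 Cdkn2c was the 1 member called, at 7.79-fold (6.36 to 9.62), where 19.5% of genes were called higher and 9.61% lower. Ccnd2, lower in CPM in this step, was higher when divided by the median gene (log2 0.34) and as UMIs per cell (log2 0.08). Its steady fall by stage therefore holds in CPM only. Ccnd1 stayed lower in this step on both of these scales (log2 -0.18 and -0.44). For E15.5 over E13.5 no member was called, where 4.11% of genes were called higher and 0.898% lower, and the ratio of Cdkn1a was 1.95 (1.83 to 2.08). For E18.5 over E15.5 Cdkn1b (2.06-fold, 1.83 to 2.33) and Rb1 (2.13-fold, 1.74 to 2.61) were called, where 13.7% of genes were called higher and 6.32% lower. Both were short of 2-fold without division by the median gene (log2 0.90 for Cdkn1b and 0.95 for Rb1) and as UMIs per cell (0.34 and 0.39). As UMIs per cell, Ccnd1 (-1.31), Ccnd2 (-1.2) and Ccng1 (-1.23) were past 2-fold lower in this step. The ratio of Cdkn1a in this last step was 1.92 (1.81 to 2.03).

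Other genes of the pathway moved in both directions over E18.5 against E11.5. Of 5 further CDK inhibitors 4 were called higher, with log2 ratios of 3.34 for Cdkn2a (p16 and p19ARF), 2.01 for Cdkn1c (p57), 1.58 for Cdkn3 and 1.45 for Cdkn2d (p19), and the median of the 5 was 1.58 beside 0 for all genes. Cdkn2a had under 20 UMIs in the E11.5 and E13.5 libraries together, so its ratio rests on a low E11.5 count. Cdk4, the partner of the D cyclins, was called lower at -1.42, and Cdk6 was not called. Of 18 G2/M genes 10 were called lower and 0 higher (median -1.05), and of 18 S phase genes 8 were lower and 0 higher (median -0.93). Of 11 E2F factors and partners 4 were lower and 1 higher (median -0.83). Of 20 p53 targets measured 6 were higher and 3 lower, with a median of 0.37, and Fas (2.60) and Pmaip1 (-2.27) lay at the ends. The share of dividing cells, 31.9% at E18.5 against 64.9% at E11.5, and the makeup of cell classes moved as well, and their part in these counts was not tested.

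A list of 18 genes induced by digestion and handling moved with stage as well. Of the 18, 13 were called higher at E18.5 than at E11.5 and 12 were higher at E18.5 than at E15.5, with 1 lower. For E13.5 over E11.5 9 were higher, and for E15.5 over E13.5 none was called in either direction. The log2 ratio of Hspa1b for E18.5 over E11.5 was 6.14. The part of this response in the levels of Cdkn1a, Cdkn1b and the other members was not tested.

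Cell classes came from clusters made without the 9 genes, Top2a and the other listed cycle genes, and were named from marker lists; a level was read where a class had at least 30 cells in a library, which gave 39 groups of class and library. Cycle genes outside the lists still shaped clusters: 1 of 3 chondrocyte-like clusters was led by Hist1h2ap, Lockd and Cdkn3, and of the cells in an unnamed cluster led by Foxp2, Hist1h2ag and Fxyd7 95.0% at E13.5 and 97.2% at E15.5 were dividing. A chondrocyte-like cluster led by Ucma and Fmod was kept apart from the chondrocyte-like class, and a cluster with both mast cell and T cell genes (Cpa3, Cd3g, Trbc2) is called blood cells without a type. Both choices were made after the clusters were seen. The osteoblast-like cluster was led by Spp1, Mmp13, Col10a1 and Ibsp, so its leading genes include those of late hypertrophic cartilage. A cluster led by the same 4 genes was named hypertrophic chondrocyte-like when the cycle genes were left in.

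Cdkn1a, which encodes an inhibitor of several CDKs and is induced by p53 and by differentiation signals, varied 63.0-fold between groups. It was highest in osteoblast-like cells at E15.5, at 1008 CPM (946 to 1072). These 73 cells were 2.82% of the cells kept from that library and held 1004 of its 2478 Cdkn1a UMIs (40.5%), with no cell over 5.78% of the class's UMIs. The interval lies above that of every other group.

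Next came differentiating muscle-like cells, at 278 CPM (247 to 313) at E15.5 and 206 CPM (177 to 238) at E18.5. Stratified epidermis-like cells had 80.3 CPM (56.2 to 111) at E15.5 and 277 CPM (253 to 304) at E18.5. Hypertrophic chondrocyte-like cells had 129 CPM (118 to 141) at E13.5 and 106 CPM (93.9 to 120) at E15.5. In the chondrocyte-like class itself Cdkn1a was at 19.3 CPM (17.3 to 21.5) at E13.5, 17.1 CPM (15.0 to 19.4) at E15.5 and 61.1 CPM (42.3 to 85.4) in the 68 cells at E18.5. Hypertrophic chondrocyte-like cells thus had more Cdkn1a than chondrocyte-like cells at E13.5 and E15.5. Differentiating muscle-like cells had more than muscle progenitor-like cells (24.0 CPM, 16.3 to 34.0) at E15.5. These intervals cover counting error only, and how many of all genes differ as much between these classes was not counted.

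At E18.5 Cdkn1a was higher in several classes at once. Muscle progenitor-like cells had 24.5, 24.0 and 104 CPM from E13.5 to E18.5, and macrophage and monocyte-like cells 79.2, 140 and 178 CPM. Endothelium-like cells had 61.8, 57.6, 52.1 and 172 CPM from E11.5 to E18.5. The class was made of different clusters by stage, nearly all from 1 at E11.5 and from 3 others later. Summed dissociation genes in the same groups were at 1391, 1366 and 2242 CPM in muscle progenitor-like and 4266, 3100, 2504 and 6020 CPM in endothelium-like cells, also highest at E18.5. In differentiating muscle-like cells, where Cdkn1a was high, they were at 1219 and 1763 CPM, the first of these the lowest of the 39 groups. Other classes high in Cdkn1a had more, with 5486 and 9661 CPM in stratified epidermis-like cells at E15.5 and E18.5 and 4893 CPM in osteoblast-like cells. Macrophage and monocyte-like cells had 3826, 3144 and 5270 CPM of dissociation genes from E13.5 to E18.5. The part of handling in these Cdkn1a levels was not tested.

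Cdkn1b was more even. It lay between 2.97 CPM in differentiating muscle-like cells at E15.5 and 58.4 CPM in neutrophil-like cells at E18.5, with a median of 23.4 CPM over the 39 groups. Pericyte and smooth muscle-like cells had 56.0 CPM (47.6 to 65.6) and the Foxp2-led cluster 45.1 and 40.2 CPM. Limb bud mesenchyme-like cells at E11.5 had 23.4 CPM (21.1 to 25.8) and held 63.5% of that library's Cdkn1b UMIs in 68.6% of its cells. Differentiating muscle-like cells, high in Cdkn1a, were the lowest in Cdkn1b.

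Cdkn2c, the INK4 inhibitor specific to CDK4 and CDK6, lay between 1.82 and 122 CPM. In chondrocyte-like cells it was at 26.6 CPM (24.2 to 29.1) at E13.5, 38.9 CPM (35.8 to 42.3) at E15.5 and 122 CPM (94.9 to 155) at E18.5, the highest of the 39 groups. That last level rests on 68 UMIs in 68 cells and on keeping the Ucma-led cluster apart. The Ucma-led cluster had 35.1 CPM in 200 cells at E18.5. At E13.5 the chondrocyte-like cells were 40.5% of the library and held 62.7% of its Cdkn2c UMIs. Connective tissue fibroblast-like cells had 82.2 and 84.4 CPM at E15.5 and E18.5, the Foxp2-led dividing cluster 77.8 and 92.1 CPM, and muscle progenitor-like cells 9.55, 27.8 and 63.4 CPM from E13.5 to E18.5. Macrophage and monocyte-like cells had 14.3, 71.4 and 31.2 CPM at the same stages, and pericyte and smooth muscle-like cells 51.7 CPM at E18.5.

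Several other classes had little of it. Osteoblast-like cells had 3.01 CPM (0.621 to 8.80), differentiating muscle-like cells at E15.5 2.97 CPM (0.613 to 8.69), and hypertrophic chondrocyte-like cells 6.61 CPM at E13.5 and 12.2 CPM at E15.5. Limb bud mesenchyme-like cells, of which 66.1% were dividing, had 2.86 CPM. Joint-like cells had 7.33 CPM at E13.5 and 2.73 CPM at E15.5. Chondrocyte-like and hypertrophic chondrocyte-like cells therefore ran opposite ways in Cdkn2c and Cdkn1a at the same stage.

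**Figure D2:**
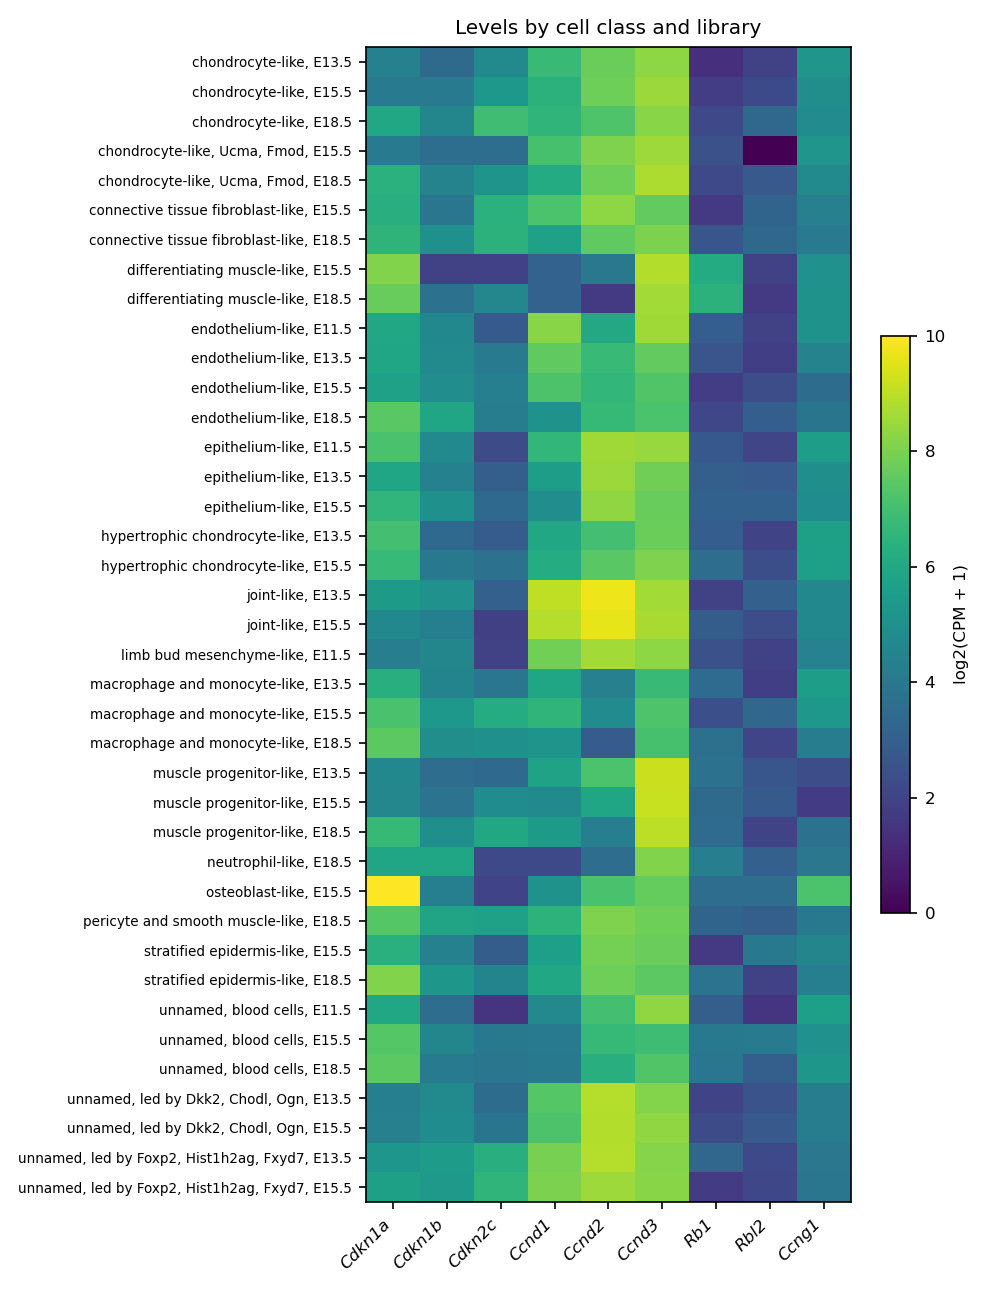
Level of the 9 genes in the 39 groups of class and library with at least 30 cells, as log2(CPM + 1) in colour, brighter where higher. Cdkn1a is brightest in osteoblast-like cells at E15.5 (1008 CPM), Rb1 in differentiating muscle-like cells (69.4 and 86.0 CPM), and Ccnd3 varies least (110 to 585 CPM).

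Which inhibitor led was read from the shares of Cdkn1a, Cdkn1b and Cdkn2c in the UMIs of the 3, in the 33 groups with at least 50 such UMIs. Cdkn1a led in 23, Cdkn2c in 7 and Cdkn1b in 3, and per kb of longest transcript Cdkn1a led in 28, Cdkn2c in 5 and Cdkn1b in 0. UMIs counted from transcript ends need not scale with transcript length, so dividing by length can favour short transcripts. Values per kb are given only to show how far the order depends on the scale. In chondrocyte-like cells Cdkn2c made 47.4%, 54.2% and 59.1% of the UMIs of these 3 inhibitors from E13.5 to E18.5 (48.3%, 57.4% and 58.9% per kb). Cdkn1a made 88.7% of them in hypertrophic chondrocyte-like cells at E13.5, 79.4% in those at E15.5, and 97.9% in osteoblast-like cells. In the Ucma-led cluster at E18.5, kept apart from the chondrocyte-like class, Cdkn1a led with 113 UMIs, against 48 of Cdkn2c and 29 of Cdkn1b.

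In muscle, progenitor-like cells at E15.5 were led by Cdkn2c (42.9%, with an interval of 32.1% to 54.1% that overlaps Cdkn1a at 36.9%, 26.6% to 48.1%), and at E18.5 by Cdkn1a (52.4%). Differentiating muscle-like cells were led by Cdkn1a, at 97.9% at E15.5 and 85.2% at E18.5. Limb bud mesenchyme-like cells were led by Cdkn1b in UMIs (52.6%, against 41.0% for Cdkn1a), while per kb Cdkn1a led (58.2%, against 34.1% for Cdkn1b). The cluster led by Dkk2, Chodl and Ogn also had Cdkn1b first in UMIs, at 46.6% at E13.5 and 45.7% at E15.5. Epithelium-like cells had Cdkn1a first at each stage (81.9%, 68.4% and 69.4% from E11.5 to E15.5), with different clusters at E11.5 and later.

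Among the D cyclins, Ccnd3 led in UMIs in 25 of the 39 groups, Ccnd2 in 14 and Ccnd1 in 0. Per kb, with the same limit as for the inhibitors, Ccnd3 led in 34, Ccnd1 in 3 and Ccnd2 in 2. Over all cells the share of Ccnd3 was 38.6%, 42.1%, 49.7% and 59.3% from E11.5 to E18.5, and that of Ccnd1 25.1%, 18.8%, 14.9% and 11.4%.

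Ccnd3 was highest in muscle. Progenitor-like cells had 585 CPM (531 to 643), 570 CPM (529 to 612) and 510 CPM (482 to 539) from E13.5 to E18.5, the highest 3 of the 39 groups. Its share of D cyclin UMIs was 75.0%, 87.0% and 89.4% there, while Ccnd2 was at 142, 58.7 and 18.4 CPM. Differentiating muscle-like cells kept Ccnd3 at 458 and 390 CPM, a share of 95.3% and 97.5%, though 29.5% and 12.4% of them were dividing. In these cells Ccnd2 had 15 UMIs at E15.5 and 2 at E18.5.

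Joint-like cells were the highest in Ccnd2 and Ccnd1, and their Ccnd3 was high as well, at 393 to 416 CPM. At E13.5 Ccnd2 was at 863 CPM (820 to 907) and Ccnd1 at 529 CPM (495 to 564). At E15.5 they were at 790 CPM (727 to 857) and 475 CPM (426 to 528). For both genes these are the highest 2 of the 39 groups. The intervals of the 2 stages overlap for both genes. The dividing share was 14.7% at E13.5 and 22.2% at E15.5. Ccnd2 made 48.3% and 47.0% of their D cyclin UMIs, and per kb Ccnd1 and Ccnd2 were nearly equal (37.2% and 35.9% at E13.5, 35.3% and 34.7% at E15.5).

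Endothelium-like cells had much Ccnd1 early. It was at 296 CPM (280 to 311), 189 CPM (165 to 216), 145 CPM (125 to 169) and 34.3 CPM (16.4 to 63.1) from E11.5 to E18.5, and its share of D cyclin UMIs was 39.7%, 38.8%, 36.6% and 12.2%. The share of Ccnd2 in the same cells was 8.65%, 21.7%, 24.5% and 36.6%. The change of clusters within this class by stage stands beside these values. Epithelium-like cells were Ccnd2-led in UMIs, at 46.1%, 56.8% and 57.7% from E11.5 to E15.5, while their Ccnd1 was at 97.7, 47.7 and 28.8 CPM.

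In cartilage, Ccnd3 led without excluding the others. Chondrocyte-like cells had Ccnd3 at 49.5%, 54.4% and 54.8% of D cyclin UMIs from E13.5 to E18.5, and hypertrophic chondrocyte-like cells had 52.7% and 52.1%. Osteoblast-like cells had 53.4%. Macrophage and monocyte-like cells had 58.6%, 55.6% and 76.4%, with Ccnd2 at 10.3%, 10.2% and 3.64%, and neutrophil-like cells 94.9%.

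**Figure D3:**
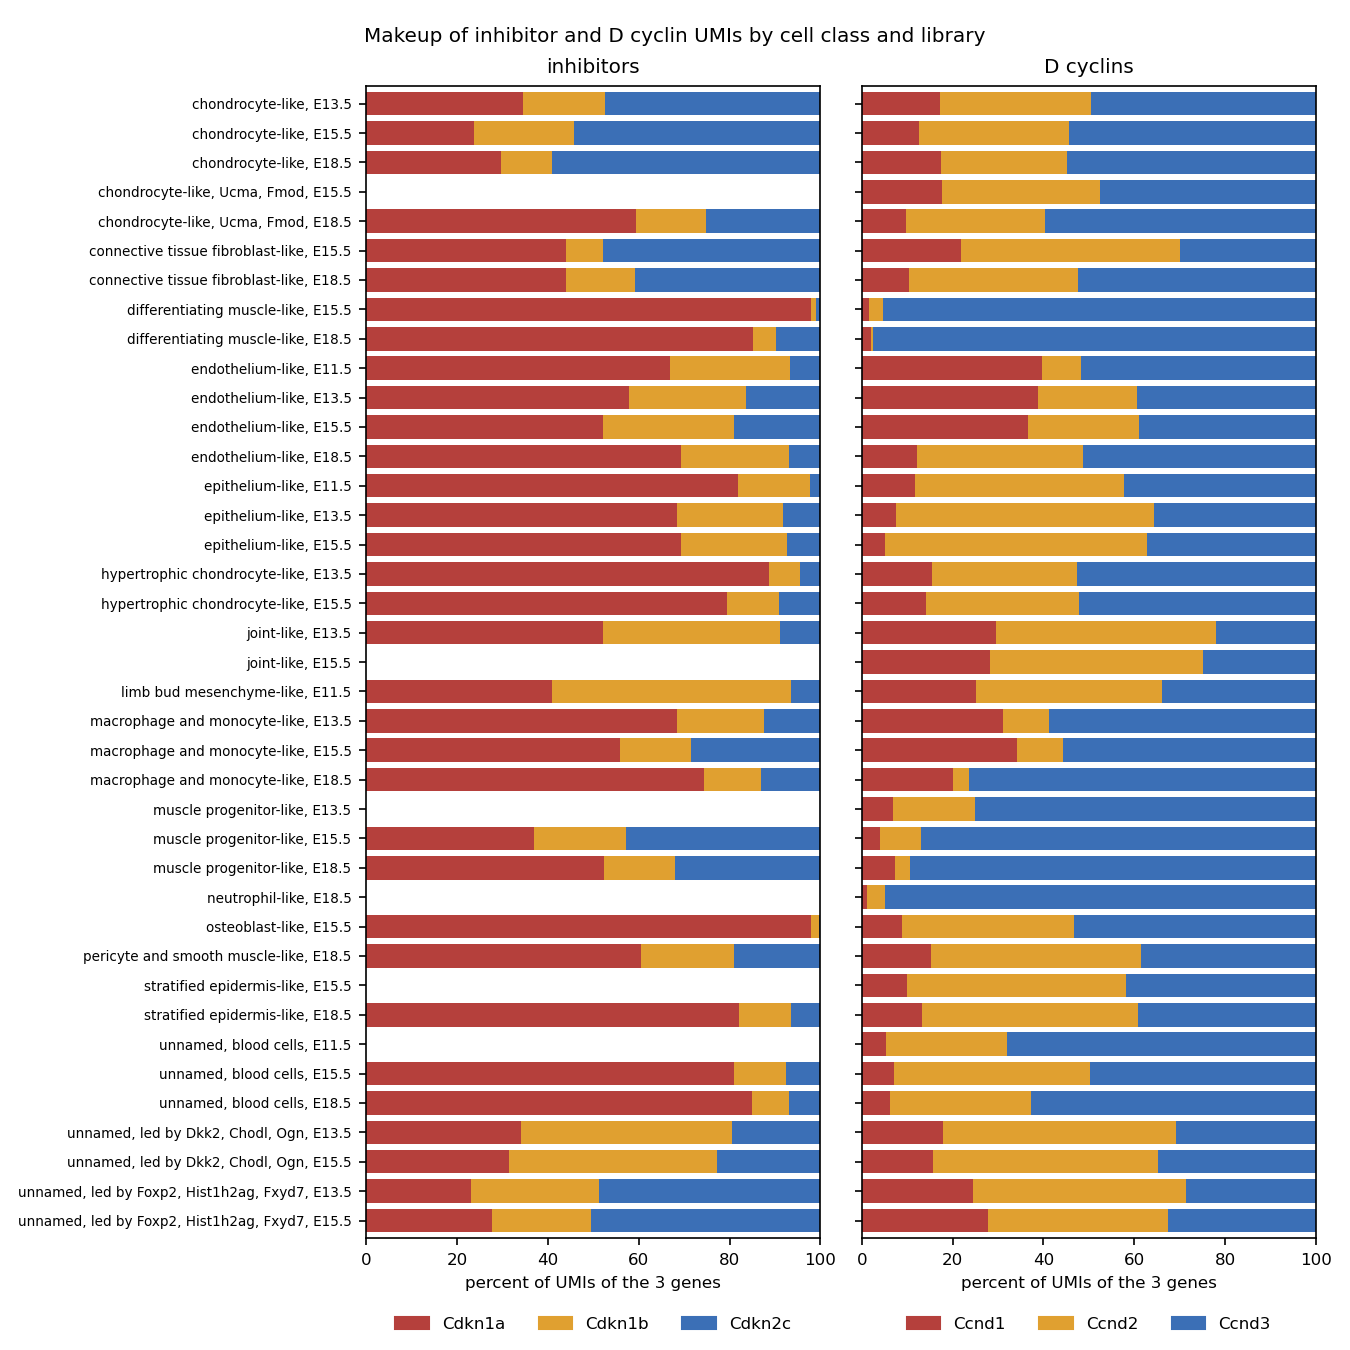
Share of each D cyclin in D cyclin UMIs and of each inhibitor in the UMIs of Cdkn1a, Cdkn1b and Cdkn2c, by class and library; blank inhibitor bars are groups with under 50 such UMIs. Ccnd3 makes 75.0% to 97.5% of D cyclin UMIs in the muscle classes, and Cdkn2c makes 47.4% to 59.1% of inhibitor UMIs in chondrocyte-like cells.

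Rb1 was highest in differentiating muscle. Differentiating muscle-like cells had 69.4 CPM (54.1 to 87.6) at E15.5 and 86.0 CPM (67.9 to 108) at E18.5, and the next group, neutrophil-like cells, had 18.3 CPM (5.93 to 42.6). Muscle progenitor-like cells had 12.3, 10.0 and 10.4 CPM from E13.5 to E18.5. Differentiating muscle-like cells held 77 of the 195 Rb1 UMIs at E18.5 (39.5%) in 5.12% of the cells and 70 of 204 at E15.5 (34.3%) in 2.35%. The lowest level was 1.52 CPM (1.00 to 2.21) in chondrocyte-like cells at E13.5.

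Rbl2 gave too few counts for an order. It ranged to 16.9 CPM (8.43 to 30.2) in blood cells at E15.5 with a median of 4.33 CPM, and 0 UMIs were found in the Ucma-led cluster at E15.5, which allows a level of up to 6.86 CPM. Ccng1, whose product binds a phosphatase and is induced with Cdkn1a by p53, was highest in osteoblast-like cells at 143 CPM (120 to 168), the group where Cdkn1a was highest too. Those cells held 15.2% of the library's Ccng1 UMIs. Hypertrophic chondrocyte-like cells had 50.5 and 49.2 CPM, chondrocyte-like cells 36.0, 29.8 and 27.0 CPM, and muscle progenitor-like cells at E15.5 2.32 CPM (0.478 to 6.78). Differentiating muscle-like cells, also high in Cdkn1a, had Ccng1 at 32.7 to 33.5 CPM, above the median of 24.6 CPM over the 39 groups. Over its 3 libraries the muscle progenitor-like class ran from 2.32 to 12.8 CPM.

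Dividing and other cells were compared over the 4 libraries with edgeR's quasi-likelihood test on summed counts, with library as a term. Cdkn2c was higher in dividing cells and Ccnd1, Ccnd2 and Ccng1 were lower. So 1 of 9 members was called higher and 3 lower at an adjusted p under 0.05, where 10.9% of the 13938 genes tested were called higher and 7.92% lower. The 4 libraries are 4 stages, so the spread between them holds stage differences of the effect. Dividing cells were deeper (above). Here and below, a lower CPM is a lower share of a cell's UMIs and need not be fewer UMIs per cell. With each cell thinned to 3000 UMIs the difference was 2.20 for Cdkn2c, -0.46 for Ccnd2 and -0.32 for Ccnd1 on the log2 scale, all still called, and -0.44 for Ccng1, whose call was lost (adjusted p = 0.0678 by edgeR). Without the library term, which ignores that both sums of a library come from 1 pool, none of the 4 was called (adjusted p = 0.891 for Cdkn2c by edgeR).

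Cdkn2c was at 4.85 CPM in dividing and 1.51 CPM in other cells at E11.5, at 36.6 and 4.54 CPM at E13.5, at 55.9 and 6.09 CPM at E15.5, and at 86.5 and 22.7 CPM at E18.5. Dividing cells were higher in each of the 4 libraries, with ratios of 3.21, 8.06, 9.18 and 3.81. The fitted difference was 2.61 on the log2 scale (SE 0.25, adjusted p = 0.000904 by edgeR), or 6.10-fold. An inhibitor of CDK4 and CDK6 was thus the member most raised in cells with Top2a.

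The D cyclins ran the other way in CPM. Dividing cells held 1.65, 1.46, 1.39 and 1.47 times the UMIs per cell from E11.5 to E18.5, and levels per cell were not compared. Ccnd2 was at 276 CPM in dividing and 442 CPM in other cells at E11.5, 232 and 322 CPM at E13.5, 193 and 267 CPM at E15.5, and 124 and 164 CPM at E18.5 (log2 difference -0.49, SE 0.05, adjusted p = 0.00168 by edgeR). Ccnd1 was at 201 and 273, 113 and 153, 89.7 and 103, and 47.4 and 63.9 CPM in dividing and other cells (-0.36, SE 0.06, adjusted p = 0.00869 by edgeR). Both were lower in dividing cells in 4 of 4 libraries. Ccnd3 was at 332 and 351, 282 and 310, 304 and 339, and 263 and 323 CPM, also lower in 4 of 4, but its difference of -0.15 did not pass (adjusted p = 0.127 by edgeR).

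Ccng1 was lower in dividing cells, at 26.6 and 35.2, 29.5 and 36.2, 24.0 and 39.8, and 17.7 and 21.6 CPM in dividing and other cells from E11.5 to E18.5 (-0.42, SE 0.09, adjusted p = 0.0234 by edgeR). The call was lost without the E13.5 (adjusted p = 0.0539), E15.5 (0.0924) or E18.5 (0.0521) library, and with Mki67 in place of Top2a (0.0929). Cdkn1b (log2 0.17), Rb1 (-0.29) and Rbl2 (0.22) did not pass. The 3 calls on Cdkn2c, Ccnd1 and Ccnd2 held with each library left out in turn.

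Cdkn1a did not pass either, and its libraries ran both ways. It was at 45.6 CPM in dividing and 50.2 CPM in other cells at E11.5, 41.5 and 46.2 CPM at E13.5, 56.0 and 113 CPM at E15.5, and 170 and 128 CPM at E18.5 (log2 -0.21, adjusted p = 0.483 by edgeR). The E15.5 ratio was 0.494, and without the osteoblast-like cells 0.743 (0.670 to 0.824). Without the hypertrophic chondrocyte-like cells as well it was 0.884 (0.788 to 0.992), and the E13.5 ratio without both was 1.22 (1.08 to 1.39). Both classes were high in Cdkn1a and mostly other cells, so leaving them out was bound to raise the ratio. Differentiating muscle-like cells, also high in Cdkn1a, were kept in. The part of class makeup in the Cdkn1a ratios was not tested.

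**Figure D4:**
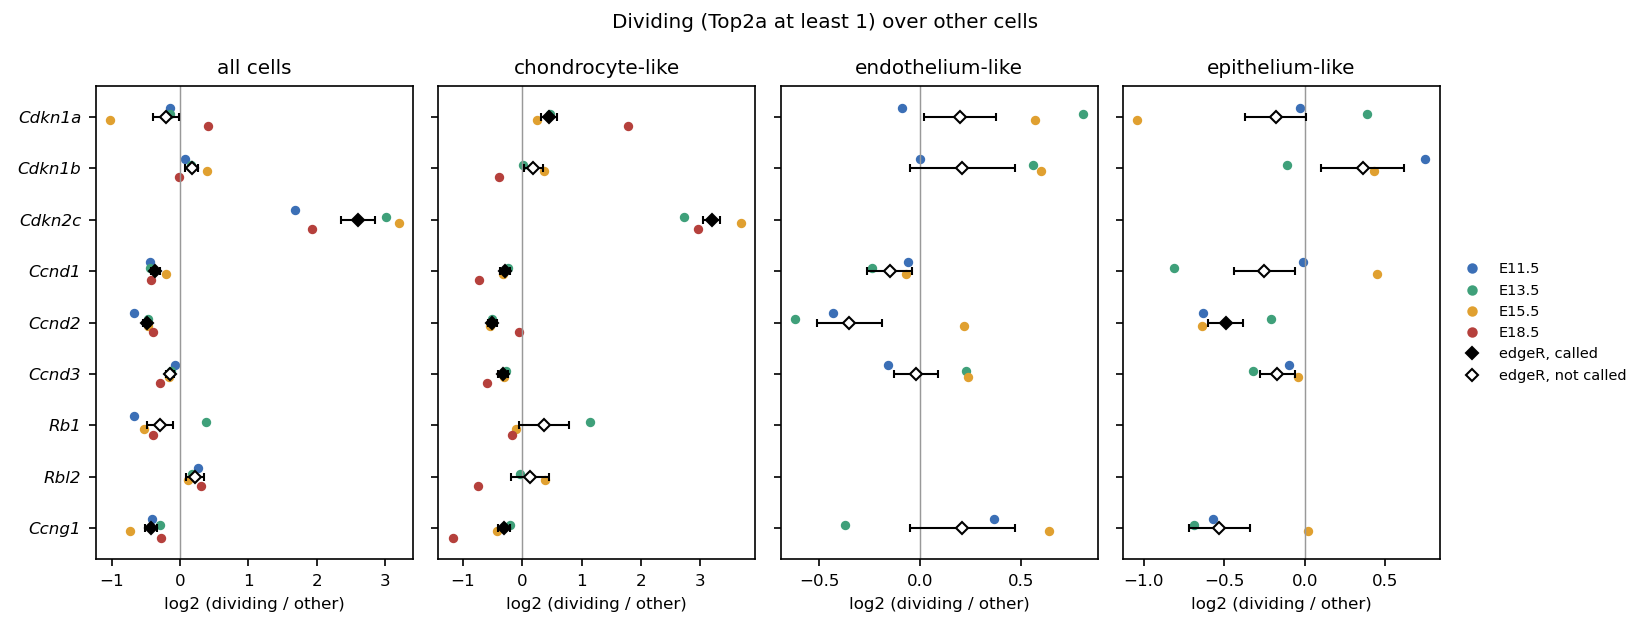
Log2 ratio of dividing (Top2a of at least 1) over other cells for each of the 9 genes, per library and as fitted over all cells of 4 libraries and within chondrocyte-like, endothelium-like and epithelium-like cells, with dots for libraries and diamonds with SE bars for the fit (filled where called). Over all cells Cdkn2c lies at 1.68 to 3.20 in every library, Ccnd2 at -0.68 to -0.40, and Cdkn1a at -1.02 to 0.41.

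Within a class, the makeup of cell classes is held fixed, but not that of the clusters it pools. The chondrocyte-like class includes the cluster led by Hist1h2ap, Lockd and Cdkn3. In chondrocyte-like cells (E13.5, E15.5 and E18.5), Cdkn2c was at 42.1 and 6.34, 69.9 and 5.45, and 207 and 26.7 CPM in dividing and other cells, a log2 difference of 3.19 (SE 0.14, adjusted p = 4.28e-28 by edgeR), or 9.12-fold. Cdkn1a was at 21.9 and 15.9, 18.5 and 15.6, and 91.8 and 26.7 CPM, 0.45 higher in dividing cells (SE 0.14, adjusted p = 0.0149 by edgeR). Ccnd2 (-0.50), Ccnd3 (-0.32), Ccnd1 (-0.29) and Ccng1 (-0.31) were lower. So 2 of 9 members were called higher and 4 lower, where 12.4% of 11429 genes were higher and 8.68% lower.

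These calls differ in strength. That of Cdkn2c held in every fit tried, while those of Cdkn1a, Ccnd1, Ccnd2, Ccnd3 and Ccng1 were lost under DESeq2 (adjusted p of 0.496 for Cdkn1a and 0.0744 for Ccnd2) and when the E13.5 or the E15.5 library was left out (0.454 and 0.416 for Cdkn1a). The E18.5 library gave 28 dividing and 40 other cells. Cdkn2c made 56.8% of inhibitor UMIs in dividing cells and 19.6% in other cells at E13.5, and 65.9% and 15.7% at E15.5. In the other cells Cdkn1a led, at 49.2% and 44.9%.

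Endothelium-like cells (E11.5, E13.5 and E15.5) gave no call among the 6 members tested, where 4.62% of 6449 genes were higher and 2.79% lower. At an unadjusted p under 0.05 the 1 member was Ccnd2, at -0.35 (adjusted p = 0.203 by edgeR), and DESeq2 called none of the 6. In epithelium-like cells of the same libraries Ccnd2 was at 336 and 521, 341 and 394, and 278 and 433 CPM in dividing and other cells (-0.49, SE 0.11, adjusted p = 0.0254 by edgeR), the 1 call of 6, where 2.22% of 8003 genes were higher and 0.587% lower. It was lost without E11.5 (adjusted p = 0.187) and without E13.5 (0.151). Cdkn2c had too few counts to be tested in both classes, but was at 7.70 and 2.15, 27.3 and 5.21, and 28.0 and 6.06 CPM in dividing and other endothelium-like cells, and at 4.84 and 1.04, 9.47 and 3.02, and 12.6 and 2.53 CPM in epithelium-like cells.

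The test of a difference between the 3 classes in the effect called 0 of 7 members tested, where 2.06% of 9746 genes were called (edgeR F test; 201 called and 1091 at an unadjusted p under 0.05). Ccnd3 (adjusted p = 0.411 by edgeR) and Ccng1 (adjusted p = 0.430 by edgeR) were the members with an unadjusted p under 0.05. For Cdkn2c the epithelium-like effect minus the chondrocyte-like effect was -1.20 (SE 0.81) and the endothelium-like one minus it -1.0 (SE 0.61) on the log2 scale, with an adjusted p of 0.594 by edgeR. No class was shown to differ.

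Across the 26 groups with at least 20 cells of both kinds, from 14 classes, Cdkn2c was higher in dividing cells in 26. In 1 of them, joint-like cells at E15.5, the other cells had 0 UMIs and the dividing cells 2. In the remaining 25 the ratio ran from 1.24 to 19.1 with a median of 4.62, and in 20 its interval lay above 1. The ratio was 19.1 (5.89 to 98.0) in hypertrophic chondrocyte-like cells at E15.5, with 33.5 CPM in dividing and 1.76 CPM in other cells. Limb bud mesenchyme-like cells were at 3.43 and 0.989 CPM, muscle progenitor-like cells at E18.5 at 89.7 and 31.1 CPM, and fibroblast-like cells at E18.5 at 164 and 43.0 CPM.

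**Figure D5:**
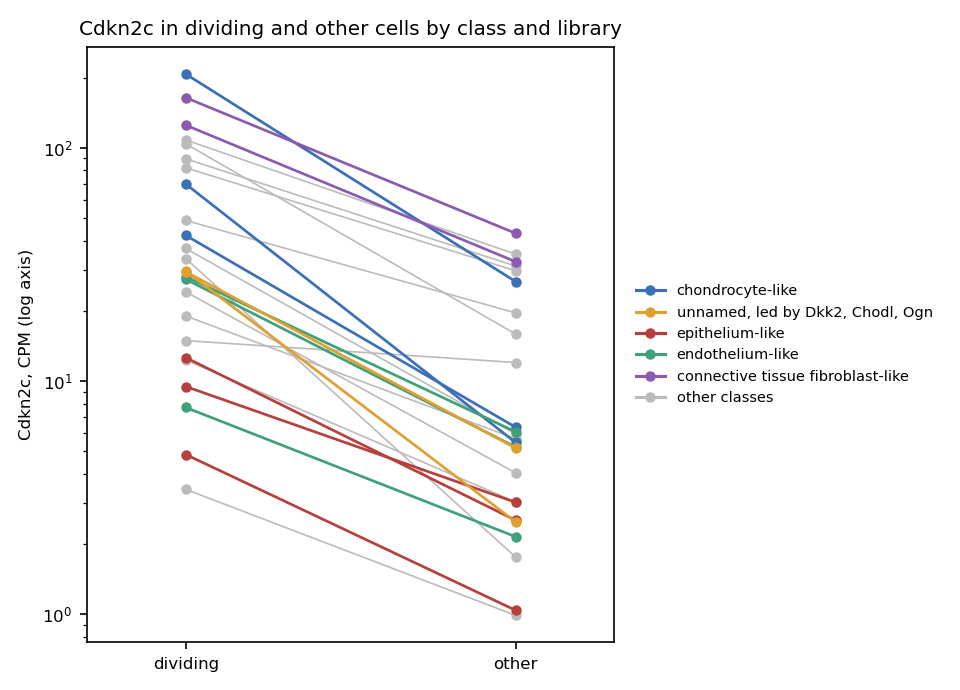
Cdkn2c level in dividing and other cells of 25 groups of class and library (CPM, log axis), with each line joining both levels of 1 group, coloured by class. The dividing cells are higher in all 25 groups drawn, by 1.24 to 19.1 times.

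Ccnd2 was lower in dividing cells in 24 of the 26 groups, with a median ratio of 0.754 and an interval below 1 in 16. In limb bud mesenchyme-like cells it was at 332 and 564 CPM in dividing and other cells (ratio 0.588, 0.559 to 0.619), and there Ccnd3, at 316 and 326 CPM (0.967, 0.909 to 1.03), had an interval that includes 1. The leading D cyclin in UMIs was Ccnd2 in both kinds of limb bud cell, at 38.6% in dividing and 46.8% in other cells. In joint-like cells at E13.5 the ratios of all 3 D cyclins had intervals that include 1, with Ccnd2 at 888 and 858 CPM (1.03, 0.902 to 1.18), Ccnd1 at 554 and 524 CPM (1.06, 0.887 to 1.26) and Ccnd3 at 399 and 392 CPM (1.02, 0.826 to 1.24).

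Ccnd1 was lower in dividing cells in 17 of the 26 groups and Ccnd3 in 17, with median ratios of 0.901 and 0.971. In muscle progenitor-like cells at E18.5 Ccnd1 was at 27.5 and 60.5 CPM (0.455, 0.297 to 0.686) and Ccnd3 at 447 and 587 CPM (0.762, 0.682 to 0.852). Macrophage and monocyte-like cells at E15.5 ran the other way for Ccnd1, with 143 CPM in 23 dividing and 43.8 CPM in 26 other cells (3.26, 1.80 to 6.25), while Ccnd2 was at 11.6 and 43.8 CPM (0.266, 0.0642 to 0.835). Hypertrophic chondrocyte-like cells at E15.5 had Ccnd1 at 89.7 and 64.4 CPM (1.39, 1.02 to 1.88).

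Cdkn1a was higher in dividing cells in 17 of the 26 groups and lower in 9, with a median ratio of 1.20. In hypertrophic chondrocyte-like cells it was at 103 and 145 CPM in dividing and other cells at E13.5 (ratio 0.715) and at 56.2 and 131 CPM at E15.5 (0.430). In muscle progenitor-like cells at E18.5 it was at 122 and 81.8 CPM (1.49). Cdkn1b had a median ratio of 1.01, with 1 interval off 1, in fibroblast-like cells at E18.5 (18.5 and 37.8 CPM; 0.489, 0.244 to 0.911). Rb1 in limb bud mesenchyme-like cells was at 3.66 and 7.66 CPM (0.478, 0.298 to 0.777).

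The rest of the pathway set the members' directions in context. Over all cells 18 of 18 G2/M genes were higher in dividing cells (median log2 3.20, beside -0.03 for all genes) and 12 of 18 S phase genes (median 0.69). Top2a, which made the split, is itself a gene of these phases, so a rise of G2/M genes was bound to follow. Of 13 other cyclins and CDKs 11 were higher, with Ccna2 at 3.37 (adjusted p = 0.000407 by edgeR), and of 11 E2F factors and partners 7, with E2f8 at 1.99 and the pocket-protein gene Rbl1 at 1.25. Ccna2, Ccnb1, Ccnb2 and Cdk1 stand both among the G2/M genes and among the other cyclins and CDKs. Among 4 further CDK inhibitors tested Cdkn3, a CDK phosphatase, was higher at 2.33 and Cdkn2d, another INK4 member, at 0.92. Cdk4 was higher at 0.29 (adjusted p = 0.0104 by edgeR), opposite in direction to Ccnd1 and Ccnd2.

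The lists of p53 targets and of growth arrest held mostly genes that were lower or not called. Of 20 p53 targets tested 4 were lower and 0 higher, among them Plk2 (-0.45) and Trp53inp1 (-0.73). Of 16 genes of growth arrest 6 were lower, among them Mxd4 (-0.82), and 1 was higher, Ccng2 (0.47), a relative of Ccng1 that ran opposite to it. Of 14 genes of D cyclin turnover and growth signalling, the ubiquitin ligase subunits Cks1b and Skp2 (0.72) were higher and Fbxo4 lower. Of 18 dissociation genes 5 were lower and 0 higher; their summed level in dividing and other cells from E11.5 to E18.5 was 4190 and 4642, 5122 and 5248, 3985 and 5068, and 6149 and 6911 CPM. The part of that response in the lower Ccng1 and D cyclins of dividing cells was not tested.

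The genes whose levels ran most like a member's were ranked by Pearson r of log2(CPM + 10) over the 39 groups, among 5562 genes with a mean of at least 20 CPM. Groups share libraries and differ in depth, so r is a description only. For Ccnd1 they were Scoc (0.84), Fam168a (0.80) and Txndc12 (0.79). For Ccnd2 they were Pafah1b3 (0.88), Adgrl1 (0.86) and Wdr6 (0.86), and for Ccnd3 Jam3 (0.80), Zmynd11 (0.75) and Ccne1 (0.75), the last a cyclin of the G1 to S step. For Cdkn2c they were the transcript Lockd (0.76), Fkbp2 (0.70) and the dividing-cell factor gene Mxd3 (0.70), and for Cdkn1b Gm17056 (0.73), Klf10 (0.71) and Dusp1 (0.71). For Cdkn1a they were Itm2b (0.65), mt-Co1 (0.60) and Arl6ip5 (0.55). Dusp1 is one of the 18 dissociation genes, and Lockd is among the leading genes of the dividing clusters.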

How the data were processed

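Single-cell RNA of 4 hindlimb libraries, 1 per stage, was analysed. The deposited values are UMI counts by gene and barcode. Per the submitters' processing notes the authors used Cell Ranger (version not stated there) with build mm10, and Seurat 2.3.4. How barcodes were called as cells is not given in the sources. The counts were whole numbers with unequal totals per cell, as checked on the files.

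A minimum of 200 genes and a maximum of 10% mitochondrial UMIs removed 314 barcodes. Scrublet marked 32 doublets (0.312%), also removed. That share is too low for a caller that works, so doublets must be assumed among the cells. Counts scaled to 10000 per cell and logged gave 2000 variable genes, 30 components, 15 neighbours and 29 Leiden clusters at resolution 1.0 (scanpy 1.11.5), with 148 listed cycle genes left out and no integration. Clusters were named from 20 marker lists. GENCODE vM21 gave gene positions and transcript lengths, and 32655 gene IDs were found in it.

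Counts summed per library over dividing and over other cells were tested with edgeR 4.0.16 (TMM, filterByExpr, quasi-likelihood, Benjamini-Hochberg over all genes tested). Library was a term in this fit because both sums of a library come from 1 pool of cells, which is where the pairing comes from. DESeq2 1.42.0, other rules for dividing cells, thinning, filters, clusterings, scalings and leaving out libraries were tried as alternatives. The fits were also run on simulated data. Of changes set at 1.5-fold, 46.3% were recovered over all cells and 35.8% to 44.8% within classes. The test between classes recovered 61.5% of differences set at 3-fold. A missing call on a small difference therefore does not show that there is none. With 1 library per stage, differences between stages have no replicate check; levels by class were described, not tested; and p-values measure the spread between libraries of different stages. Levels carry exact Poisson intervals, shares Clopper-Pearson ones and ratios exact conditional binomial ones, at 95%; a level of 0 allows up to 3 UMIs.

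All 9 members are named. Of each further list at most 4 called genes with the largest differences were eligible to be named, and 3 genes most like a member. The members and lists were chosen with earlier results of these data known. The p53 element search, and the 250 bases printed, were chosen after the windows were seen.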

Additional observations from a re-analysis of the deposited data

How the results depend on the processing

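Of the members' differences between dividing and other cells under the alternatives, 220 kept their direction and side of the threshold, 34 lost a call, 1 gained one and 12 reversed. The fit without the replicate block, which ignores the pairing of both sums of a library, called 181 genes higher and 2 lower over all cells (1519 and 1104 with it), 449 and 22 in chondrocyte-like (1421 and 992), 41 and 0 in endothelium-like (298 and 180), and 0 and 0 in epithelium-like cells (178 and 47). Without it Cdkn2c was at 2.37 (adjusted p = 0.891 by edgeR) over all cells and 3.54 (0.00149) in chondrocyte-like cells, and the calls on Ccnd1, Ccnd2 and Ccng1 were lost. Leaving out 1 library gave 724 to 1421 genes higher and 326 to 851 lower over all cells (838 and 470 without E13.5, 724 and 326 without E15.5, 559 lower without E18.5), 310 to 1639 and 3 to 1433 in chondrocyte-like (499 and 49 without E13.5, 310 and 3 without E15.5), 267 to 291 and 84 to 161 in endothelium-like (84 without E11.5), and 56 to 197 and 4 to 81 in epithelium-like cells (56 and 4 without E13.5, 81 lower without E15.5). DESeq2 called 467 and 45 in chondrocyte-like, 129 and 20 in endothelium-like, and 97 and 7 in epithelium-like cells. Mki67 in place of Top2a gave 994 higher over all cells and 114 lower in endothelium-like cells, called Cdkn1b (0.36, adjusted p = 0.0320 by edgeR) and lost Ccng1 (0.0929) and, in epithelium-like cells, Ccnd2 (0.348). Thinning to 3000 UMIs gave 756 higher and 581 lower and lost Ccng1 (0.0678). With no filter on low counts epithelium-like cells had 303 higher and 124 lower, and 305 genes differed between classes (201 with it).

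Members reversed were, over all cells, Cdkn1a without E15.5 (-0.41 to 0.06 with 1 library left out) and Rb1 when thinned (0.48). In chondrocyte-like cells they were Cdkn1b and Rbl2 without E15.5 (-0.04 to 0.28 and -0.11 to 0.24) and Rb1 without E13.5 (-0.12 to 1.02). In endothelium-like cells they were Ccnd3 without the block (0.02), by DESeq2 (0.03), by Mki67 (0.01) and without E11.5 (-0.08 to 0.22), and Ccng1 without E11.5 (-0.04 to 0.38). In epithelium-like cells they were Cdkn1a without E15.5 (-0.41 to 0.09) and Ccnd1 without E13.5 (-0.52 to 0.08). None of these was a call. The Ucma-led cluster joined to the chondrocyte-like class, chosen after seeing the data, gave 1401 higher and 991 lower, with Cdkn2c at 3.17 (adjusted p = 3.28e-12 by edgeR).

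Between stages, CPM not divided by the median gene called 1945 genes higher and 3968 lower for E13.5 over E11.5 (2958 and 1457 when divided) and 5186 lower for E18.5 over E11.5 (2067). UMIs per cell called 2304 lower for E13.5 over E11.5, 218 lower for E15.5 over E13.5 (137), 992 higher and 4432 lower for E18.5 over E15.5 (2044 and 944), and 1940 higher and 7508 lower for E18.5 over E11.5 (3637 and 2067). Per kb, Ccnd3 led 87.2% of groups (64.1% in UMIs), Ccnd2 5.13% (35.9%), Cdkn1a 84.8% (69.7%) and Cdkn1b 0% (9.09%). The causes were not tested. Mki67 could not be used within chondrocyte-like cells, with under 20 cells of one kind at E18.5, nor for the difference between classes. Depth limits Rb1 and Rbl2 most, with 710 and 454 UMIs in all.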
